A study of Mus musculus with 8 samples.

Results

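The 10 genes described here mark the olfactory bulb and the immature neurons that supply it, and all 10 were found among the 15978 rows of the authors' deposited DESeq2 table by matching the RefSeq accessions in its row names to gene symbols. They were chosen by their known roles and with their deposited fold changes and p-values in view, so those values are given as a description and not as a test. The table compares 5 samples of brain RNA from male C9-BAC mice with 3 from male wild-type mice, all on an SJL/Bl6 background, and the labels do not say whether each sample is a separate mouse. The transgene of C9-BAC mice was a BAC, a bacterial vector that holds a long insert of genomic DNA, with human C9ORF72 including 500 G4C2 repeats, an expansion of the kind that causes amyotrophic lateral sclerosis and frontotemporal dementia. The labels give the tissue as brain and name no age and no dissection, nor whether the olfactory bulbs stayed with the brain. The table holds 1 mean and 1 fold change per gene and no value per sample, so values by sample and their spread were not analysed here. Its header does not say which genotype is the numerator, and signs are therefore given as deposited, with no direction between C9-BAC and wild-type brain.

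In the adult rodent brain, neural stem cells along the lateral ventricles give rise to neuroblasts that migrate to the olfactory bulb and become inhibitory interneurons there. The bulb's output neurons, the mitral and tufted cells, are glutamatergic and are made before birth. The Sox genes encode transcription factors with an HMG-box DNA-binding domain. Sox1 is expressed in neural precursors, and Sox11 and Sox4 act in newly formed neurons. Dcx encodes doublecortin, a microtubule-binding protein of migrating neuroblasts, and Prokr2 encodes a receptor for prokineticin 2, which guides these cells into the bulb. Sp8 encodes a zinc finger transcription factor of bulb interneurons. Eomes (Tbr2) and Tbx21 (T-bet) encode T-box transcription factors of mitral and tufted cells, Cdhr1 a cadherin-related protein and Doc2g a C2-domain protein of the same cells.

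The values of the 10 genes were graded. Sox11, Sox1 and Prokr2 had the most negative fold changes, with standard errors ordinary for their abundance. The 4 mitral and tufted cell genes had fold changes next to 0, the smallest standard errors of the 10 for their abundance, and in 3 of 4 cases no p-value at all. Sox4, Sp8 and Dcx lay between these in fold change or standard error. None of the 10 was called at a DESeq2 adjusted p of 0.05 in the authors' deposited table, where 0 of 15944 rows with a p-value (0.0%) were called. An unadjusted p under 0.05 was listed for 2 of the 7 genes that had a p-value, both negative, against 239 of 15944 rows (1.5%) of either sign and 134 (0.84%) that were negative. Fold changes were negative for 8 of the 10 genes, against 52.6% of all rows, and their median log2 fold change was -0.019, against -0.0044 for all rows. Since the fold changes helped to choose the genes, nothing is read from these counts. In bulk RNA, a difference in the number of cells of a type and one in RNA per cell cannot be told apart.

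**Figure D1:**
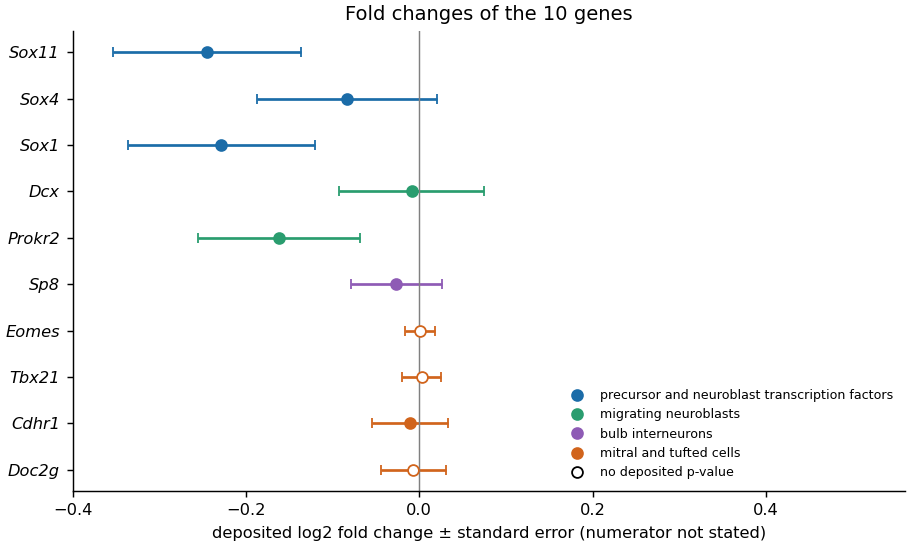
Deposited log2 fold change (x axis, numerator not stated) with its standard error as a bar for each of the 10 genes (y axis), coloured by role, with open points for genes that have no deposited p-value. Sox11, Sox1 and Prokr2 lie between -0.24 and -0.16, while the 4 mitral and tufted cell genes lie between -0.010 and 0.0026 with short bars.

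The promoters of 5 of the genes are shown to set the most negative genes beside the mitral cell genes. Each is the 300-base window from 250 bases before to 50 bases after the transcript start, 5′ to 3′ on the gene's strand, from RefSeq on GRCm38.p6 (the assembly also called mm10). Capitals mark matches on either strand to the GC box GGGCGG or the E-box CAGCTG. Sox11 (chr12:27342669-27342968, minus strand), Sox1 (chr8:12395269-12395568, plus strand) and Prokr2 (chr2:132385398-132385697, minus strand) are the most negative of the 10. Tbx21 (chr11:97115282-97115581, minus strand) and Eomes (chr9:118477939-118478238, plus strand) are the T-box genes of mitral cells.
Sox11: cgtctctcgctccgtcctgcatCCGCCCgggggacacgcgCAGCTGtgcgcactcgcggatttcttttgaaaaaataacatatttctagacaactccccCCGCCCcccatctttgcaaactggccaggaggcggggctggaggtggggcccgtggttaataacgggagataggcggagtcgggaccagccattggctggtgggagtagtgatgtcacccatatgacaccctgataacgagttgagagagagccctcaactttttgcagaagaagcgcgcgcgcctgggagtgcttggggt
Sox1: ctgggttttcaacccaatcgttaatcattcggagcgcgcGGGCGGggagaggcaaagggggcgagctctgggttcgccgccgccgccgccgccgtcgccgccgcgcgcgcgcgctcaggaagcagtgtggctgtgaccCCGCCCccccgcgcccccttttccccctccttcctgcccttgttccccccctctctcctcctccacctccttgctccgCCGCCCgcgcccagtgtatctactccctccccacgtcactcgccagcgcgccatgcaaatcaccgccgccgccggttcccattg
Prokr2: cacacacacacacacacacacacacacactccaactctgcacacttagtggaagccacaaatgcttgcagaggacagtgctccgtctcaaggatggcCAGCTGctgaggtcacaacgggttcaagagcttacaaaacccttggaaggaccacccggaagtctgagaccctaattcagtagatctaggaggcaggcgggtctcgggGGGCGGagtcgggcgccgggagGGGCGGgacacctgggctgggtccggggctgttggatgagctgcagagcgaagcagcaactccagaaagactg
Tbx21: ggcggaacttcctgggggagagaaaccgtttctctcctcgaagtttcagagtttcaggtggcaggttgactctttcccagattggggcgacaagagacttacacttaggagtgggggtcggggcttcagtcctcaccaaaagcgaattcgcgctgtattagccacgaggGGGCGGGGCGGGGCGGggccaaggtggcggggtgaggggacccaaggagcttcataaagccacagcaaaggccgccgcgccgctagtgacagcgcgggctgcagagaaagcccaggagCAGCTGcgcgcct
Eomes: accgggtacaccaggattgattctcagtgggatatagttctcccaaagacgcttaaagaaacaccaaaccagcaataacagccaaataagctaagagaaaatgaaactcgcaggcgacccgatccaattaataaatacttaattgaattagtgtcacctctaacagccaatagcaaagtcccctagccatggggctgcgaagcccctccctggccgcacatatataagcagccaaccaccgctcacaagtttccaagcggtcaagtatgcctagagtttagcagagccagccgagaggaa

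The Sox1 window was the richest of these in CpG, with 37 CpG dinucleotides and 70.7% GC. It was in the 94.7th percentile of CpG number among 32851 promoter windows, whose median was 7. The windows of Sox11 and Tbx21 had 21 each, that of Prokr2 12 and that of Eomes 10. Of the genes not shown, Doc2g had 0 CpG, both Dcx windows 3, Cdhr1 9 and Sox4 12. The 3 Sp8 windows had 2, 32 and 10. GC boxes stood in windows of 5 of the 10 genes (Prokr2, Sox1, Sox11, Sp8 and Tbx21), against 35.7% of all windows, and the 3 matches in Tbx21 overlap one another. The E-box CAGCTG stood in windows of 5 genes (Cdhr1, Prokr2, Sox11, Sox4 and Tbx21), against 16.3% of all windows. Other motifs searched on both strands were the E-box CAGATG (Doc2g only, 17.2% of all windows), the SOX core ACAAAG (Dcx only, 18.7%), the homeodomain site TAATTA (Dcx and Sp8, 5.29%), TATAAA (Dcx and Sp8, 13.6%) and the T-box element GGTGTGA, found in none of the 10 genes and in 3.98% of all windows. Dcx has 2 windows and Sp8 has 3, because they have several transcript starts. A gene was counted if any of its windows held the motif, while the shares are of single windows. The 2 measures are therefore not alike for Dcx and Sp8. These matches describe letters in the windows and show no binding.

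The 3 Sox genes are intronless, with 1 exon each in the annotation, and all had negative fold changes. Sox11, on chromosome 12 at 27334268 to 27342718, averaged 230.1 normalized counts and had a log2 fold change of -0.24 ± 0.11 (SE) per the authors' deposited table (a fold of 0.844, Wald statistic -2.26, unadjusted p = 0.024, DESeq2 adjusted p = 0.9997). Its absolute fold change was in the 99.7th percentile of all rows. Sox1, on chromosome 8 at 12395519 to 12399555, averaged 129.6 normalized counts and had a log2 fold change of -0.23 ± 0.11 (SE) per the authors' deposited table (a fold of 0.854, Wald statistic -2.11, unadjusted p = 0.0349, DESeq2 adjusted p = 0.9997). Its absolute fold change was in the 99.4th percentile. Sox4, on chromosome 13 at 28948919 to 28953699 and of the same SoxC group as Sox11, was listed at 84.5 normalized counts with a log2 fold change of -0.08 ± 0.10 (SE) per the authors' deposited table (Wald statistic -0.807, unadjusted p = 0.42). Its distance from 0 was thus smaller than its standard error.

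The Sox1 value is uncertain because the span of the gene lies inside that of another row. Only spans were compared, and it was not tested whether exons of the 2 genes overlap. Sox1ot, a noncoding RNA annotated on the same strand at 12385771 to 12436732 on chromosome 8, averaged 98.7 normalized counts and had a log2 fold change of -0.25 ± 0.11 (SE) per the authors' deposited table (Wald statistic -2.26, unadjusted p = 0.0236). The libraries were strand-specific, per the labels' protocols, but strand cannot separate 2 genes that read the same way, and how reads in the shared stretch were assigned was not given in the sources used here. None of the other 9 genes overlapped a row. Within 50 kb, the nearest rows belonged to Capn6 beside Dcx, Golga4 beside Eomes, Mrpl10 and Tbkbp1 beside Tbx21, 2610528A11Rik beside Cdhr1, and Nudt8 and Ndufv1 beside Doc2g. Their log2 fold changes ran from -0.11 for Golga4 to 0.08 for Mrpl10 in the authors' deposited table, with unadjusted p-values of 0.231 and 0.402 for these genes.

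The neuroblast genes Prokr2 and Dcx differed in both abundance and fold change. Prokr2, on chromosome 2 at 132369705 to 132385502 with 3 exons, averaged 24.9 normalized counts and had a log2 fold change of -0.16 ± 0.09 (SE) per the authors' deposited table (a fold of 0.894, Wald statistic -1.73, unadjusted p = 0.0833). Dcx, on chromosome X at 143855842 to 143933396 with 7 exons, was the most abundant of the 10 genes, at 445.1 normalized counts, and had a log2 fold change of -0.0088 ± 0.084 (SE) per the authors' deposited table (unadjusted p = 0.916). The Dcx standard error was smaller than that of all but 1.25% of the 400 rows nearest in abundance. Prokr2, at the 21.2nd percentile by the same measure, was not unusual. Sp8, the interneuron gene, on chromosome 12 at 118846288 to 118852578, was listed at 48.2 normalized counts with a log2 fold change of -0.027 ± 0.053 (SE) per the authors' deposited table (unadjusted p = 0.609), and its standard error was at the 0.75th percentile.

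The 4 mitral and tufted cell genes were detected, and their deposited fold changes were next to 0, which sets no bound on the difference. Cdhr1, on chromosome 14 at 37077849 to 37098347, had 167.9 normalized counts and a log2 fold change of -0.010 ± 0.044 (SE) per the authors' deposited table (unadjusted p = 0.812). Doc2g, on chromosome 19 at 4003385 to 4007005, had 88.1 normalized counts and a log2 fold change of -0.0069 ± 0.038 (SE) per the authors' deposited table. Eomes, on chromosome 9 at 118478186 to 118486132, had 24.8 normalized counts, with a log2 fold change of 0.00085 ± 0.017 (SE) per the authors' deposited table. Both T-box genes carried the only positive signs of the 10, at values next to 0. Tbx21, on chromosome 11 at 97098007 to 97115331, was the least abundant, at 10.3 normalized counts with a log2 fold change of 0.0026 ± 0.023 (SE) per the authors' deposited table.

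Doc2g, Eomes and Tbx21 have no p-value in the authors' deposited table, like 34 of its 15978 rows (0.213%). DESeq2 is known to withhold a p-value where the count of a single sample lies far from the model's fit, or where every count is 0. All 3 genes have a mean above 0. The reason for the missing values was not given in the sources used here and was not tested, since the table holds no value per sample. Of the 34 rows, 25 had negative fold changes, and their mean normalized counts ran from 1.7 to 1320 in the authors' deposited table. Besides the 3 genes, 4 others of the lists described here were among them. Ms4a15 and Shisa3 are of the mitral and tufted cell list. Omp, the olfactory marker protein gene, and Ngfr, a neurotrophin receptor gene, are of the list of olfactory sensory axons and ensheathing glia. The remaining rows were in none of the lists, among them Hba-a2, Hbb-bs, Nptx2, Fosb, Cdkn1a and Slc5a7. The genes named besides the 3 were singled out after their values were seen.

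Of the 10 genes, the 4 mitral and tufted cell genes, Sp8 and Dcx had small standard errors for their abundance. The 3 Sox genes and Prokr2 did not. Across the table standard errors did not shrink with depth in the usual way: the median was 0.0516 where the mean normalized count was under 10, 0.109 from 50 to 200, and the highest was 0.11. A form of this kind is known from fold changes drawn toward 0 by a prior. Such a step is not recorded in the sources used here and was not tested. A small standard error is not read here as a precise estimate, and a fold change near 0 is taken to set no bound on the difference. Set against the 400 rows nearest in mean normalized count, 6 of the 10 genes had a standard error in the lowest 5% for their abundance, against 782 of 15978 rows (4.89%). These were Eomes, Tbx21 and Doc2g (percentile 0.0 for each), Cdhr1 (0.25), Sp8 (0.75) and Dcx (1.25). The rows around Eomes had a median standard error of 0.0975, against 0.0169 for Eomes itself, and those around Doc2g one of 0.109, against 0.0376. The 4 genes outside the lowest 5% were Sox4 (9.75), Prokr2 (21.2), Sox1 (48.2) and Sox11 (68.0). All 34 rows without a p-value lay in the lowest 5%.

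**Figure D2:**
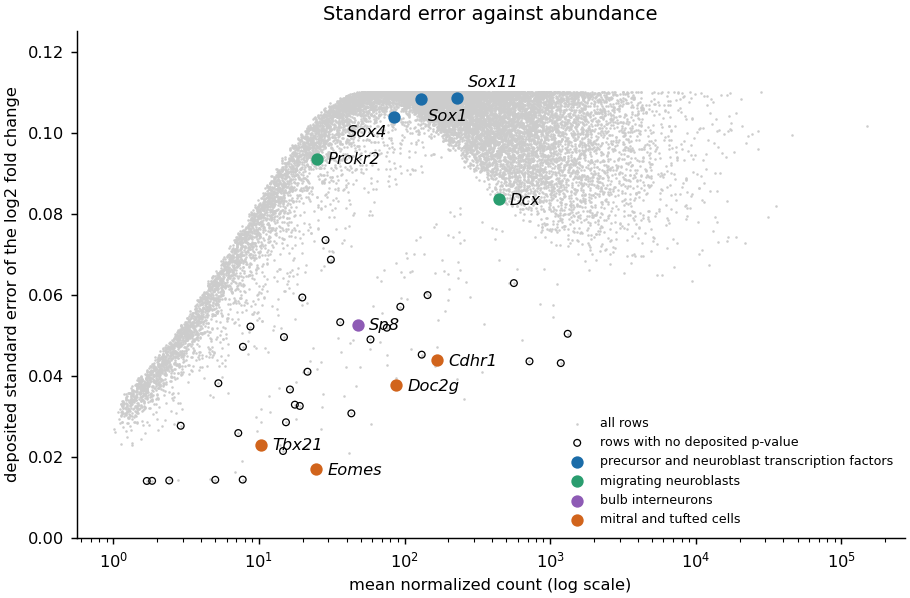
Deposited standard error of the log2 fold change (y axis) against mean normalized count (x axis, log scale) for all rows (grey), rows with no p-value (open circles) and the 10 genes (coloured by role). Sox11, Sox1, Sox4 and Prokr2 lie in or near the main band, while Sp8, Cdhr1, Doc2g, Tbx21 and Eomes lie far under it, at 0.017 to 0.053.

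Per length, the 10 genes were of low to middling abundance. Doc2g had 60.0 normalized counts per kb of its longest transcript, at the 50.1st percentile of rows, Dcx 49.1, Cdhr1 38.8, Sox11 27.7 and Sox1 26.8. The lower part of the order was Sox4 at 17.6 normalized counts per kb, Sp8 at 10.8, Eomes at 6.96, Prokr2 at 5.55 and Tbx21 at 4.16, at the 13.6th percentile. With no value per sample, it was not tested which neighbours in this order differ beyond their spread.

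Other genes of the same cells were counted in lists that leave out the 10. Of 4 further mitral and tufted cell genes in the table, all 4 were negative with a median log2 fold change of -0.017, and 2 had no p-value. In standard error 2 of these 4 were in the lowest 5% for abundance, with a median percentile of 3.12, while Lbhd2 (9.25) and Nmb (5.5) were outside it. Lbhd2 was listed at -0.08 ± 0.07 (SE), and Nmb, the neuromedin B gene, at -0.011 ± 0.065 (SE), in the authors' deposited table. Of 19 further interneuron genes, 16 were negative and 3 positive, with a median of -0.059. In the authors' deposited table, Zic1, a zinc finger transcription factor gene, had the smallest p-value of these (121.2 normalized counts, log2 fold change -0.24 ± 0.11 (SE), unadjusted p = 0.0288). Sp9, the related factor gene of Sp8, followed in the authors' deposited table (-0.11 ± 0.09 (SE), unadjusted p = 0.235). Prokr2, called a neuroblast gene above, was placed in the full interneuron list and is left out here. None of the 19 was called at a DESeq2 adjusted p of 0.05. In the interneuron list 5 of these 19 were in the lowest 5% for abundance, among them Th, the tyrosine hydroxylase gene of dopaminergic bulb cells (0.25), Calb2, which encodes calretinin (0.75), Scgn, which encodes secretagogin (1.0), and Trh, the thyrotropin-releasing hormone gene (2.0), 4 genes named after their values were seen. Zic1, at the 97.8th percentile, was at the other end, as were Zic2 (99.5) and Tpbg, which was higher still. Synpr (80.5), Etv1 (78.75), Tshz1 (65.5), Vax1 (62.0) and Meis2 (59.75) also lay above the middle of rows of like abundance. The remaining genes, Sall3 (3.25), Sp9 (6.25), Pax6 (7.25), Dlx1 (8.0), Dlx2 (16.25), Dlx6 (17.5) and Dlx5 (22.75), lay below the middle. These genes too, apart from Zic1 and Sp9, were named after their values were seen. The median percentile of the 19 was 17.5, so standard errors in this list leaned small for their abundance, though not in every gene.

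Among neuroblast and precursor genes other than the 10, no unadjusted p was under 0.05. Of 14 further neuroblast and immature neuron genes, 7 were positive and 7 negative with a median log2 fold change of 0.0057, and none was in the lowest 5% of standard errors. The noncoding RNA Dlx6os1, transcribed from the Dlx5 and Dlx6 locus, was listed at -0.20 ± 0.10 (SE) (unadjusted p = 0.0556), and Igfbpl1 at -0.14 ± 0.07 (SE) (unadjusted p = 0.0569), in the authors' deposited table. Of 18 further stem and precursor cell genes, 13 were negative and 5 positive with a median of -0.047. The proliferation genes Top2a, a DNA topoisomerase, and Mki67, the Ki-67 antigen, were listed at -0.16 and -0.14, each ± 0.10 (SE), per the authors' deposited table (unadjusted p = 0.0977 and 0.159). Sox2, the close relative of Sox1, was at -0.12 ± 0.10 (SE) per the authors' deposited table (unadjusted p = 0.25), a value looked up after the rest.

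Among family relatives, no Sox gene outside the 10 had an unadjusted p under 0.05. Of 13 other Sox rows, 8 were negative and 5 positive, with a median log2 fold change of -0.013, and their smallest p-value belonged to the endothelial factor gene Sox17, at 0.12 ± 0.10 (SE) per the authors' deposited table (unadjusted p = 0.247). Sox12, the other SoxC gene, was at 0.026 ± 0.10 (SE) per the authors' deposited table (unadjusted p = 0.797). Of 22 relatives of the other genes (doublecortin-like kinases, Prokr1, Doc2a and Doc2b, T-box, Sp and Cdhr genes), 14 were negative and 8 positive, with a median of -0.014. The zinc finger factor genes Sp2, at 0.18 ± 0.11 (SE), and Sp4, at -0.11 ± 0.08 (SE), had the smallest p-values in the authors' deposited table (0.111 and 0.214).

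**Figure D3:**
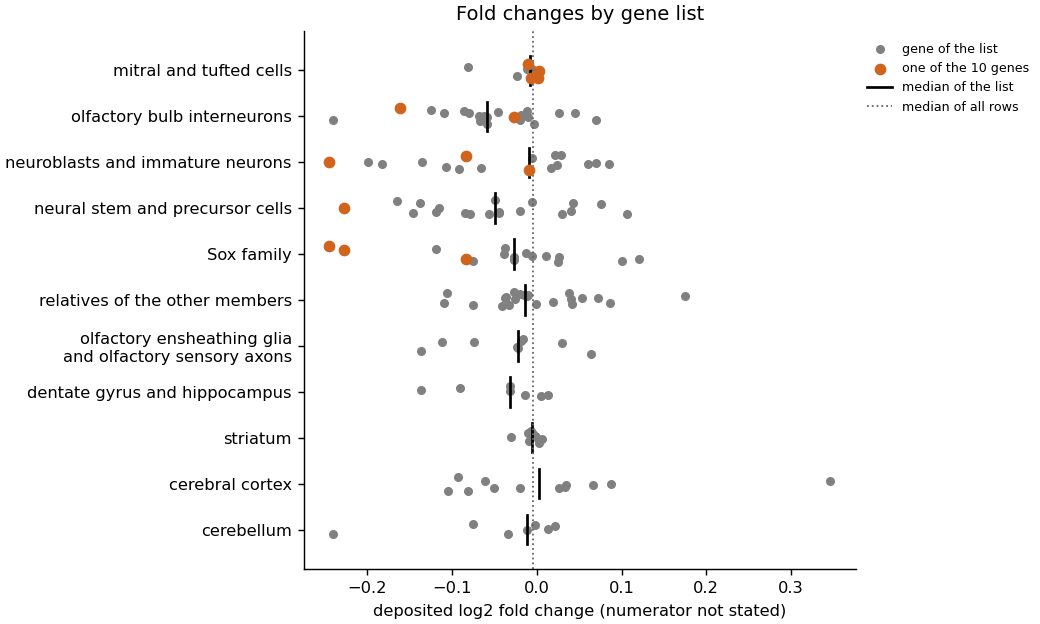
Deposited log2 fold change (x axis, numerator not stated) of each gene in 11 lists (y axis), with the 10 genes in orange, the median of each list as a bar and the median of all rows as a dotted line. Mitral and tufted cell genes and striatal genes crowd near 0, with list medians of -0.0087 and -0.0057, and the interneuron list has a median of -0.059.

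Markers of olfactory sensory axons and ensheathing glia and of other brain regions showed where else such small standard errors occurred. Of 9 genes of olfactory sensory axons and ensheathing glia in the table, 7 were negative, 2 had no p-value and 4 were in the lowest 5% of standard errors. The list had a median log2 fold change of -0.023, and the genes of smallest p were Gng13 (-0.14), Fabp7 (-0.11) and Npy (0.06) by log2 fold change in the authors' deposited table, with unadjusted p-values of 0.215, 0.236 and 0.557. All 10 striatal genes were in the lowest 5%, with standard errors of 0.041 to 0.066 and log2 fold changes of -0.03 to 0.0063. The dopamine receptor genes Drd1 (-0.03) and Drd2 (0.0063) and the tachykinin gene Tac1 (-0.011) had the smallest p of that list in the authors' deposited table, 0.634, 0.888 and 0.864. By contrast 0 of 12 cortical genes were in the lowest 5%, and their median percentile was 74.0. In the cortical list Lamp5, a membrane protein gene, had a log2 fold change of 0.35 per the authors' deposited table (unadjusted p = 0.000714), followed by Foxp2 (-0.10, p = 0.333) and Emx1 (-0.09, p = 0.387), and 6 of 12 genes were positive. None of 7 hippocampal and 7 cerebellar genes in the table was in the lowest 5%. Fibcd1 (-0.14), Prox1 (-0.09) and Wfs1 (-0.03) led the first list, with 5 of 7 negative, and Zic1, Grm4 (-0.03) and Neurod1 (0.02) the second, also with 5 of 7 negative, in the authors' deposited table. Of the 10 genes in the cerebellar list, Pcp2, Gabra6 and Barhl1 had no row. En2 and Cbln3 averaged only 2.82 and 2.84 normalized counts. Calb1 is also in the hippocampal list and Zic1 in the interneuron list, so the cerebellar counts say little about cerebellum. The amount of bulb tissue in each RNA sample was not tested, and no list is called particular from these counts.

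**Figure D4:**
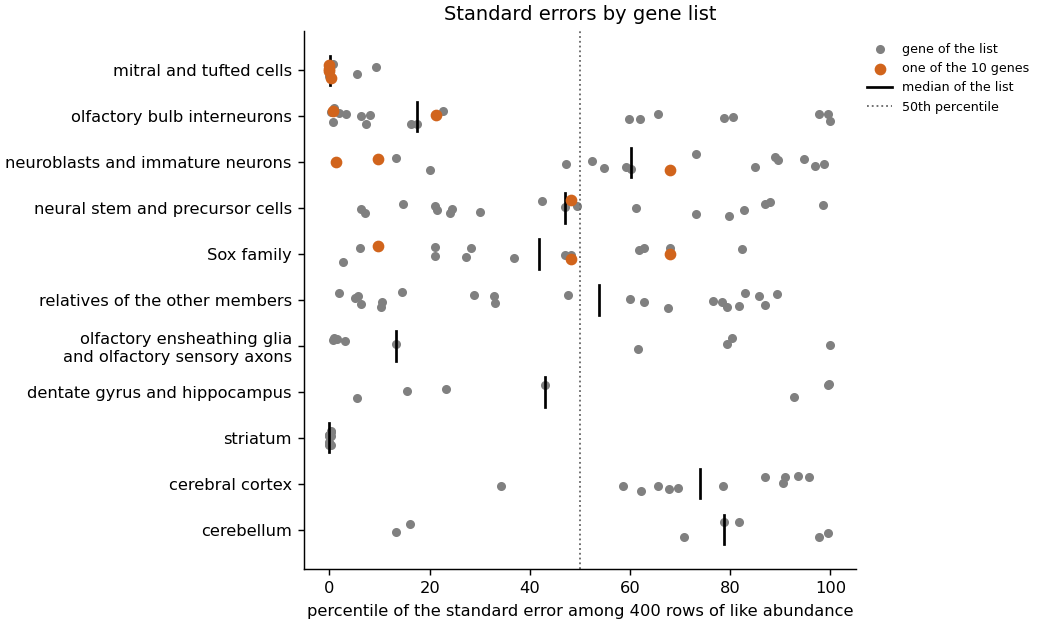
Percentile of each gene's standard error among the 400 rows nearest in mean normalized count (x axis) for 11 gene lists (y axis), with the 10 genes in orange and each list's median as a bar. The mitral and tufted cell list (median 0.12) and the striatal list (median 0.0) sit at the left edge. Without the 10 genes, the median of the mitral and tufted cell list is 3.12. The neuroblast list (median 60.2) and the cortical list (median 74.0) do not sit there.

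The Wald statistic was higher at higher GC content of the transcripts across the table, and the 10 genes spanned this range. Its median was -0.549 in the quintile of lowest GC content and 0.352 in the highest, over rows averaging at least 10 normalized counts, and the share of positive rows was 21.2% and 69.3%. Dcx (40.6% GC) and Prokr2 (44.3%) were in the lowest quintile. Sox11 (46.5%) was in quintile 2, where the median statistic was -0.225. Sox1 (56.9%) was in the highest quintile, so its statistic of -2.11 stood against the sign of most rows of like GC content. Doc2g (58.5%) and Tbx21 (59.3%) were in the same quintile as Sox1, with statistics of -0.184 and 0.112. With GC content and transcript length regressed out over all rows, Sox1 had a statistic of -2.38 and Sox11 one of -2.00. With this residual also divided by its own spread (a MAD-based SD of 0.685), the statistics were -3.48 for Sox1 (adjusted p = 0.205) and -2.92 for Sox11 (adjusted p = 0.39), by Benjamini-Hochberg adjustment over the rows of the DESeq2 table averaging at least 10 normalized counts, and neither was called.

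**Figure D5:**
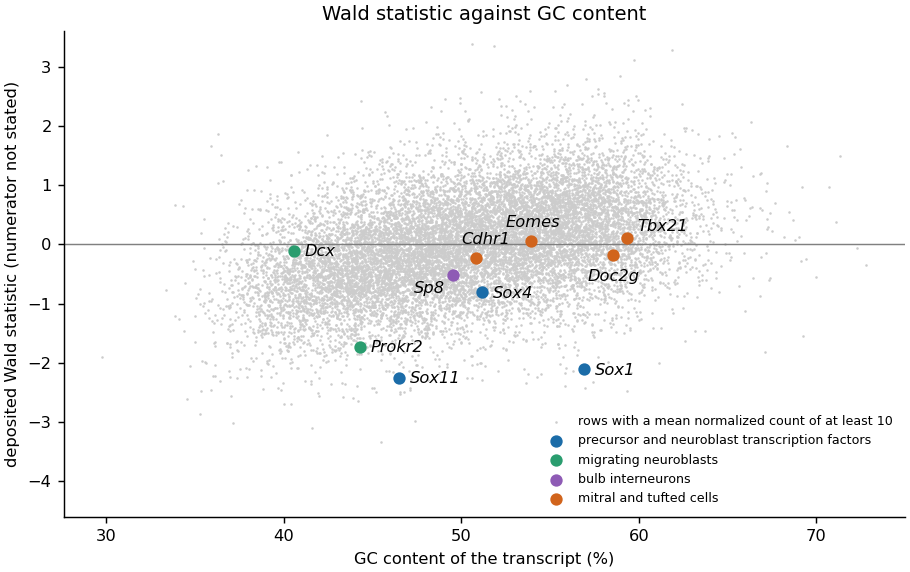
Deposited Wald statistic (y axis, numerator not stated) against GC content of the longest transcript in percent (x axis) for rows averaging at least 10 normalized counts (grey) and the 10 genes (coloured by role). Sox1 lies at 56.9% GC and a statistic of -2.11, where the median of its quintile is 0.352, and Sox11 at 46.5% GC and -2.26, where it is -0.225.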

How the data were processed

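Strand-specific libraries came from Trizol-extracted total brain RNA that had not been poly(A)-selected, per the labels' protocols. Trimmomatic, Bowtie2, DESeq, DESeq2 and build mm10 were used, per the submitters' processing notes. Versions, read counter and annotation are not given there. The authors deposited 1 table of results. Per the file headers it holds a mean normalized count (a signal: counts divided by size factors, averaged over samples), a log2 fold change with its standard error on the log2 scale, the Wald statistic (a score) and a p-value with its adjusted p-value. The deposited statistic equals fold change over standard error within 8.3e-07, and the adjusted p a Benjamini-Hochberg adjustment over 15944 rows within 5.3e-12. Mean normalized counts sum to 9226666, the only measure of depth; replicates are numbered samples whose origin is not stated, so the spread behind each p-value may be technical.

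Symbols came from RefSeq accessions on GRCm38.p6, or GENCODE vM21, for 15930 rows. GC content and length are of the longest matching vM21 transcript (15869 rows, all 10 genes). Standard error percentiles use 200 rows on each side in abundance. Named were the 10 genes, overlapping or flanking rows within 50 kb, and in each of 11 lists the 3 genes of smallest p with a mean of at least 10. The genes and lists were chosen with earlier results of these data known. The 4 alternative settings and 2 added changes were run; the code was tested on simulated data. Python 3.11.15, numpy 2.4.6, scipy 1.17.1 and patsy were used.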

Additional observations from a re-analysis of the deposited data

How the results depend on the processing

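No paired analysis was possible because the table holds no value per sample, and for the same reason no sample could be left out in turn. None of the 10 genes was called under any of the 4 alternative settings: rows averaging at least 10 normalized counts, the statistic rescaled to its own spread (a MAD-based SD of 0.789), GC content and length regressed out with the residual then rescaled, and rows of several genes or a shared symbol left out. With the rescaled residual 3 rows of the table were called (Lamp5, Mical2 and Snrpn, named after their values were seen), against 0 as deposited, 0 with the rescaled statistic alone and 0 with the residual not rescaled, a setting added after seeing the data. The sign turned for 3 of the 10 genes with the residual, to a statistic of 0.711 for Dcx, -0.323 for Tbx21 and -0.213 for Eomes when rescaled and 0.492, -0.216 and -0.141 when not, all next to 0 before. Genes of the 10 with an unadjusted p under 0.05 numbered 3 with the rescaled statistic and the rescaled residual, where Prokr2 joined Sox11 and Sox1, against 2 as deposited and 2 with the residual not rescaled. Windows of 100 and 400 rows, chosen after seeing the data, left 6 genes in the lowest 5% of standard errors. As deposited, a single row could be called alone only at a p of 3.14e-06 or less, a limit that eases where several rows are small. Size limits were not computed, because deposited fold changes may be drawn toward 0.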
